A study of Homo sapiens with 6 samples.

Results

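The E2F transcription factors and the retinoblastoma family of pocket proteins were followed by RNA sequencing in H1975 cells, which derive from a lung adenocarcinoma with mutant EGFR, before and after treatment with osimertinib (Osi), a tyrosine kinase inhibitor of EGFR. The members were 10 genes chosen by symbol (E2F1, E2F2, E2F3, E2F4, E2F5, E2F7, E2F8, RB1, RBL1 and RBL2) out of the 27216 rows of the table, and all 10 were present. The 3 parental samples were H1975 cells at 0 h of Osi, and their columns are named for DMSO, without a statement of whether that vehicle was given. The 3 adapted samples were H1975 cells exposed to Osi at 1000 nM for 72 h, from which dying cells had been rinsed off with cold PBS before RNA was taken, so that only the cells that remained attached were measured. Time in culture therefore cannot be told apart from Osi. Both groups are the same line, with the genotype labelled WT, and the labels do not say whether the 3 replicates of a group were separate cultures. The study describes its data in general as coming from independent experiments with technical replicates, without saying which these are. The p-values therefore rest on the spread between these samples, which may be technical. According to the labels, RNase R, an enzyme that degrades linear RNA, was applied before library construction and the treated cells went to circRNA sequencing, whereas the study's methods name RNA sequencing of total RNA. If linear RNA was digested, the values of a gene would include circular RNA and linear RNA that was left, and these cannot be told apart from its mRNA level here.

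Cells enter the cell cycle when cyclin D and cyclin E kinases phosphorylate the pocket proteins RB1, RBL1 (p107) and RBL2 (p130), which then release the E2F factors they hold. E2F1, E2F2 and E2F3 bind DNA with a DP partner and are known as activators of genes for DNA replication. E2F4 and E2F5 act mainly with RBL1 and RBL2 as repressors in resting cells, where RBL2, E2F4, a DP protein and the MuvB core form the DREAM complex. The atypical factors E2F7 and E2F8 bind DNA without a DP partner or pocket protein and shut off E2F targets late in S phase. Several of these genes are themselves E2F targets, among them E2F1 and RBL1.

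The values were read as log2(FPKM + 1), FPKM being fragments scaled by transcript length and by the size of the library. Levels of different genes are set side by side on that reading. If linear RNA was digested, those levels, and the shares, ratios and ranks taken from them, may not be comparable between genes. Back on the linear scale, a sample totalled 375342 to 387753 FPKM. The depth is unknown, since counts of reads were not used. The SDs given are the spread over replicates. Standard errors, confidence intervals and p-values from limma use a variance for each row that is drawn toward a trend over all rows tested. Parental samples correlated with one another at 0.997 or more and adapted samples at 0.991 to 0.996, across genes, which are not independent replicates. Of 9 markers of lung and epithelial cells, 7 had a mean of at least 1 FPKM (EPCAM, KRT8, KRT18, KRT19, CDH1, NKX2-1 and NAPSA), while the surfactant genes SFTPB and SFTPC were at or near 0, and the 9 summed to 3180 to 3200 FPKM in parental and 2250 to 2390 in adapted samples. The 8 markers of immune, endothelial and stromal cells summed to 78.5 to 80.7 FPKM in parental and 23.6 to 36.6 in adapted samples, most of it CD68, a lysosomal protein that other cells also make, and, of the rest, COL1A1 was higher in adapted samples (6.84 to 8.73 FPKM against 2.98 to 3.11), PECAM1 was lower (0.0531 to 0.0756 against 0.994 to 1.63), the others were at 0.265 FPKM or less throughout, and CD3E was at 0 in all 6 samples. Their part in the results was not tested.

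The sequence upstream of 4 members carried the 8-base motif TTTNNCGC, a loose pattern for the core of sites bound by E2F factors, in which N is any base. Whether E2F factors bind these matches was not tested. The sequence is printed here because 3 of these genes fell and the remaining gene, E2F3, did not pass the test. The motif was searched on both strands, with overlapping matches counted, in windows from 250 bases before to 50 bases after the start site (RefSeq, GRCh38.p14). It was present in 6.89% of all 35116 windows, and 2 or more matches were present in 0.558%. The window of E2F1 held 4 matches, that of E2F2 held 3 and that of RBL1 held 2, while the upstream window of E2F3 held 1. The stretches below run 5′ to 3′ from position -130 to -1 before the start site, with the matches in capitals, and adjoining capitals in E2F1 and E2F2 are matches that overlap. They lie at chr20:33686386-33686515 (E2F1), chr1:23531234-23531363 (E2F2) and chr20:37095998-37096127 (RBL1), all on the minus strand, and at chr6:20401749-20401878 (E2F3) on the plus strand.
E2F1: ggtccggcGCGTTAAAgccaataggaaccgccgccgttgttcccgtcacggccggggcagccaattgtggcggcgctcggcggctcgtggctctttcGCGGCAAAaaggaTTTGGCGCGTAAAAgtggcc
E2F2: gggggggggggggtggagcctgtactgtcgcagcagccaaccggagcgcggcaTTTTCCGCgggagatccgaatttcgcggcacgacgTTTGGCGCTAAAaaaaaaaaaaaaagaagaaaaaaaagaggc
RBL1: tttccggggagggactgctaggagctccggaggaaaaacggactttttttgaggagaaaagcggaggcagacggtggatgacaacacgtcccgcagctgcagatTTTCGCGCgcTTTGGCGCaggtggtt
E2F3: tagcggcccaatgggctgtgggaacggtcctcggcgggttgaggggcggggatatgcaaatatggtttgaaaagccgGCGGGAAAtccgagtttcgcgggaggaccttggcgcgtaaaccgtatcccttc
The same 8 letters, TTTGGCGC, begin at position -20 in E2F1, at -42 in E2F2 and at -16 in RBL1, on the sense strand of each. The windows of E2F4 and E2F7, both windows of RBL2 and the downstream window of E2F3 held no match. The start site of the window listed for RB1 lies inside the gene, 172724 bases from the 5′ end annotated in GENCODE v29, and that window held no match. E2F5 and E2F8 were not matched to a window.

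The filter on low values (a mean of 1 or more on the log2 scale over all samples) kept all 10 members. E2F2 passed the filter only through its parental values (log2 mean 1.42 in parental and 0.77 in adapted samples). Of the 10 members, 7 were lower in adapted cells past the threshold (limma, adjusted p under 0.05), E2F2 among them. None was higher, and E2F3, E2F7 and RBL2 did not pass the threshold. The background was broad: 56.9% of the 12656 rows tested were past the threshold. Of all rows tested, 26.2% were lower and 30.7% were higher in adapted cells. The same 7 members had no overlap between the 3 parental and 3 adapted values, as did 66.3% of all rows tested. An exact permutation test of 3 samples against 3 cannot give a p below 0.1, and it gave 0.1, two-sided, for each of the 7. The median log2 fold change was -0.37 over the 10 members and 0.03 over all rows tested. In bulk RNA, fewer cycling cells and less mRNA per cell cannot be told apart.

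**Figure D1:**
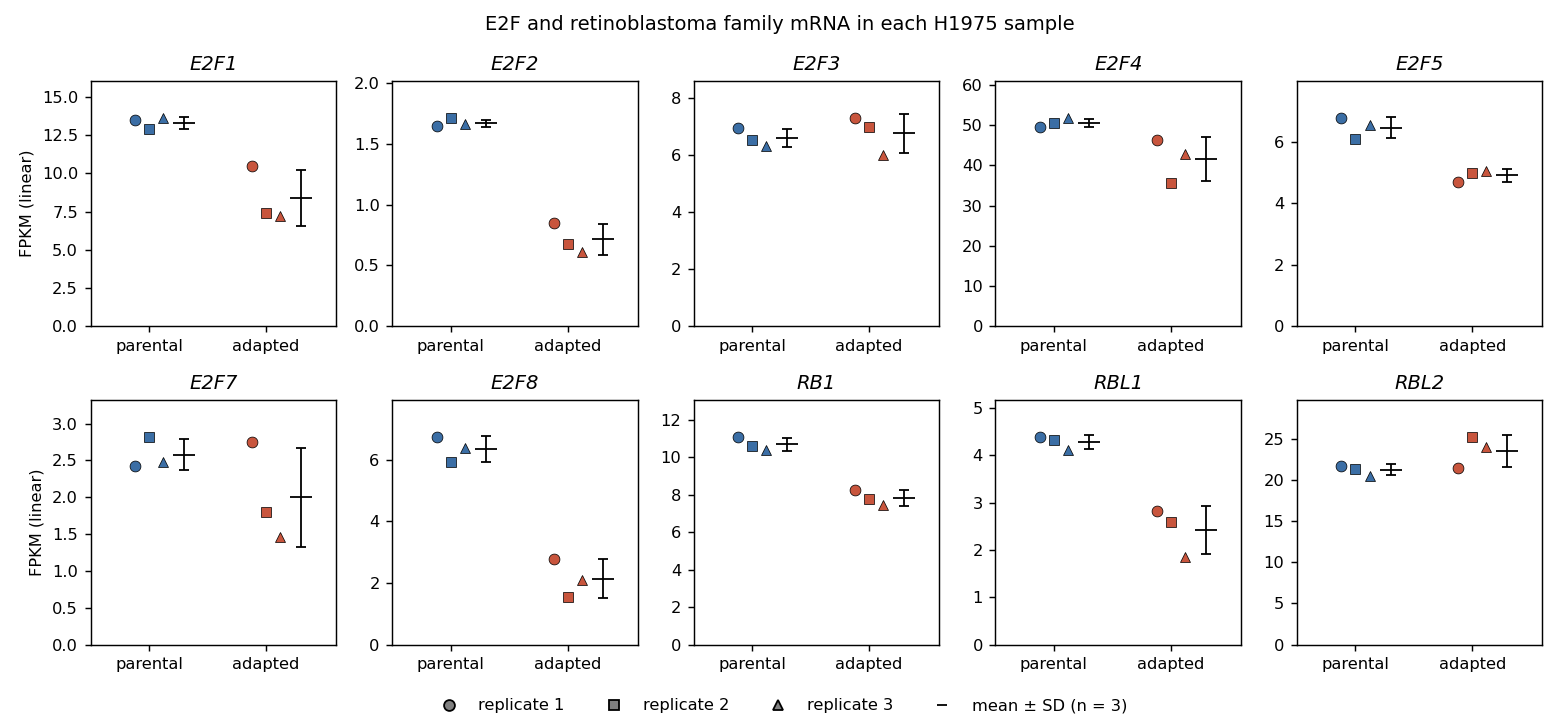
Level of each member in linear FPKM (vertical axis, starting at 0) in the 3 parental and 3 adapted samples, with symbols for the replicate number and bars for the mean ± SD (n = 3). The adapted values of E2F8, E2F2 and RBL1 sit well below the parental ones, and those of E2F3 overlap them. Adapted replicate 1 is the highest of the adapted samples in 6 of the 7 members that fell, and also in E2F7.

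Among the activators, E2F1 was measured at 13.5, 12.9 and 13.6 FPKM in parental replicates 1 to 3 and at 10.5, 7.38 and 7.23 in adapted replicates 1 to 3. Adapted replicate 1 lay between the parental values and the other two adapted samples. The mean level decreased by 37.1% and the log2 fold change was -0.63 (standard error 0.13, limma, adjusted p = 0.0052). E2F2 was the lowest member in both groups, with 1.65, 1.71 and 1.66 FPKM in parental and 0.852, 0.677 and 0.611 in adapted samples. Every adapted sample was below every parental sample, and the mean decreased by 57.4%. Its log2 fold change was -0.64 (standard error 0.09, limma, adjusted p = 0.00084), a size that the added 1 compresses at such low levels, since with 0.1 added in its place it was -1.14.

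E2F3, the remaining activator, did not follow them. Parental samples gave 6.95, 6.54 and 6.33 FPKM and adapted samples 7.30, 7.0 and 6.01, so the highest and the lowest of the 6 values were both in adapted cells. The log2 fold change was 0.03 with a 95% confidence interval of -0.17 to 0.23 (limma, adjusted p = 0.801), and its sign turned with quantile normalization and without adapted replicate 1. The E2F1 to E2F3 ratio in linear FPKM was 1.95, 1.96 and 2.15 in parental and 1.44, 1.06 and 1.20 in adapted samples. The E2F2 to E2F3 ratio was 0.237, 0.261 and 0.262 against 0.117, 0.0968 and 0.102. Neither ratio overlapped between the groups, and the two-sided exact permutation test gave p = 0.1 for each, also after adjustment over the 5 ratios compared. Both ratios were chosen after the values were seen, each setting a member that fell without overlap against E2F3, which did not pass. Their separation therefore adds no support beyond the values of the members.

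The repressor E2F4, on chromosome 16 at 67192169 to 67198918 (plus strand, GRCh38, GENCODE v29), was the most abundant member, at 49.6, 50.6 and 51.7 FPKM in parental and 46.2, 35.6 and 42.9 in adapted samples. All adapted values were below the parental ones, although replicate 1 came within a few FPKM of them. The mean decreased by 17.9%, and the log2 fold change was -0.29 (standard error 0.10, limma, adjusted p = 0.0376). This call was the least stable of the 7: it was lost with no filter (adjusted p = 0.111), with samples set to an equal sum that leaves out mitochondrial transcripts (adjusted p = 0.0632), and in each of the fits that left out 1 sample except the one without adapted replicate 1. Over those 6 fits the log2 fold change ranged from -0.36 to -0.18. E2F5, its close relative, was measured at 6.77, 6.09 and 6.54 FPKM in parental and at 4.68, 4.99 and 5.07 in adapted samples. The adapted samples were tightly grouped, and replicate 1 was the lowest of them. The log2 fold change was -0.34 (standard error 0.07, limma, adjusted p = 0.00556), a decrease of the mean by 24.0%. In GENCODE v29, 16.3% of the exonic bases of E2F5 overlap C8orf59 on the opposite strand, and whether reads were counted by strand is not stated.

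Of the atypical factors, E2F8, on chromosome 11 at 19224063 to 19241620 (minus strand), fell most of all members. It was measured at 6.75, 5.93 and 6.38 FPKM in parental and at 2.79, 1.53 and 2.09 in adapted samples. The highest adapted value was less than the lowest parental value by a wide margin. The mean decreased by 66.3%, and the log2 fold change was -1.25 (standard error 0.14, limma, adjusted p = 0.000341), between -1.56 and -1.10 over all alternatives. E2F7 was measured at 2.43, 2.82 and 2.48 FPKM in parental and at 2.75, 1.80 and 1.46 in adapted samples. Adapted replicate 1 lay within the parental range and the other two adapted samples below it. The log2 fold change was -0.27 with a 95% confidence interval of -0.64 to 0.09 (limma, adjusted p = 0.169). Without adapted replicate 1 it was -0.45 and past the threshold (limma, adjusted p = 0.00456). The ratio of E2F8 to E2F7 was 2.78, 2.1 and 2.57 in parental and 1.01, 0.854 and 1.44 in adapted samples, a log2 difference of -1.20 with no overlap (exact permutation test, two-sided, p = 0.1). It too was chosen after the values were seen and adds no support beyond the values of E2F8 and E2F7.

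The gene rows whose 6 values, centred on their own mean, lay nearest to those of E2F8 among 11697 named rows were BCL3, ENG and RDM1, at Euclidean distances of 0.125, 0.136 and 0.165 on the log2 scale over the 6 samples. BCL3, for example, went from 44.4, 44.4 and 46.1 FPKM to 22.3, 15.0 and 18.6. The likeness is a description of these 6 samples.

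Of the pocket proteins, RB1 and RBL1 fell and RBL2 did not pass the test. RB1, the retinoblastoma protein, was measured at 11.1, 10.6 and 10.4 FPKM in parental and at 8.27, 7.77 and 7.44 in adapted samples. The groups did not overlap and both were narrow. Its mean decreased by 26.9%, and the log2 fold change was -0.41 (standard error 0.07, limma, adjusted p = 0.00167). RBL1, the pocket protein found mainly in cycling cells, was measured at 4.39, 4.33 and 4.12 FPKM in parental and at 2.83, 2.59 and 1.85 in adapted samples. Every adapted sample was lower, replicate 3 most of all. The mean decreased by 43.4%, and the log2 fold change was -0.64 (standard error 0.12, limma, adjusted p = 0.00313).

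RBL2, the pocket protein of resting cells and a DREAM subunit, lies on chromosome 16 like E2F4, at 53433977 to 53491649 (plus strand), and was measured at 21.7, 21.3 and 20.4 FPKM in parental and at 21.4, 25.2 and 24.0 in adapted samples. Adapted replicates 2 and 3 were above all parental samples and replicate 1 was among them. The log2 fold change was 0.14 with a 95% confidence interval of -0.03 to 0.32 (limma, adjusted p = 0.132). Without adapted replicate 1 it was 0.21 and past the threshold (limma, adjusted p = 0.0112). Exons of RBL2 overlap AKTIP on the opposite strand over 8.33% of its exonic bases, and an unclassified transcript over 9.85%.

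**Figure D2:**
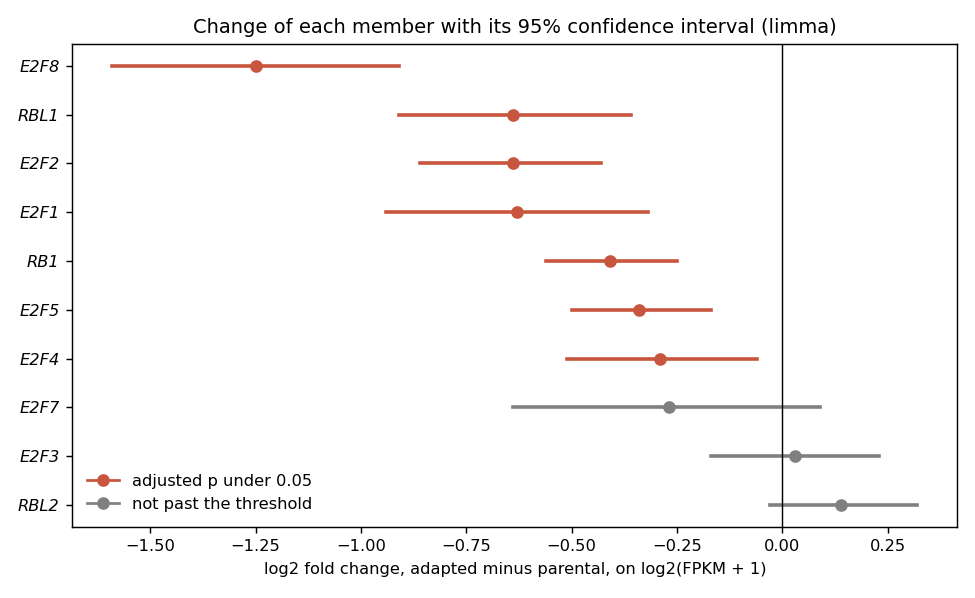
Log2 fold change of each member, adapted minus parental, on the log2(FPKM + 1) scale (horizontal axis), with points for the estimate and lines for the 95% confidence interval from limma (3 samples per group). The intervals of 7 members lie below 0, from E2F8 at -1.25 to E2F4 at -0.29, and those of E2F7, E2F3 and RBL2 include 0.

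The proportions of the 3 pocket proteins differed between the groups. RBL2 made up 58.4%, 58.7% and 58.5% of the summed pocket protein FPKM in parental samples and 65.9%, 70.9% and 72.1% in adapted samples. The shares did not overlap, and the mean rose by 11.1 percentage points (exact permutation test, two-sided, p = 0.1, the smallest possible). The level of RBL2 itself did not pass the threshold, while RB1 and RBL1 fell without overlap. The separation of the shares therefore adds no support beyond the values of these members. The share of RB1 went from 29.6% ± 0.25 to 23.2% ± 1.95 and that of RBL1 from 11.8% ± 0.085 to 7.18% ± 1.58 (SD, n = 3 each). The RBL1 to RBL2 ratio was 0.202, 0.203 and 0.201 in parental and 0.132, 0.103 and 0.0769 in adapted samples. The RB1 to RBL2 ratio was 0.509, 0.499 and 0.509 against 0.386, 0.308 and 0.309. Both ratios were chosen after the values were seen and add no support beyond the values of the members. The summed FPKM of the 3 genes was 36.1 ± 1.13 before Osi and 33.8 ± 1.58 after it (SD, n = 3 each, exact permutation test, two-sided, p = 0.2), and its values overlapped.

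The summed FPKM of the 7 E2F genes was 87.7, 86.5 and 88.7 in parental and 75.2, 59.0 and 65.4 in adapted samples. The activators E2F1, E2F2 and E2F3 together made up 25.2%, 24.4% and 24.3% of it in parental and 24.9%, 25.5% and 21.2% in adapted samples. These shares overlapped and their means differed by -0.792 percentage points (exact permutation test, two-sided, p = 0.9), a difference that turned to 0.55 without adapted replicate 3. The makeup behind that sum differed between the groups. E2F3 went from 7.54% ± 0.394 to 10.3% ± 1.42 of all E2F FPKM and E2F1 from 15.2% ± 0.307 to 12.5% ± 1.48 (SD, n = 3 each). E2F4 rose in share from 57.8% ± 1.04 to 62.5% ± 2.78 while its level decreased, and E2F8 dropped in share from 7.25% ± 0.426 to 3.17% ± 0.557 (SD, n = 3 each). Each of these 4 shares had no overlap between groups (exact permutation test, two-sided, p = 0.1), nor had that of E2F2, which went from 1.91% to 1.07%. The sum they are taken over was lower in every adapted sample, and the level of E2F3 itself did not pass the threshold. The separation of these shares therefore adds no support beyond the values of the members. The shares of E2F5 (7.38% and 7.48%, exact permutation p = 0.9) and E2F7 (2.94% and 2.98%, exact permutation p = 1.0) overlapped.

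**Figure D3:**
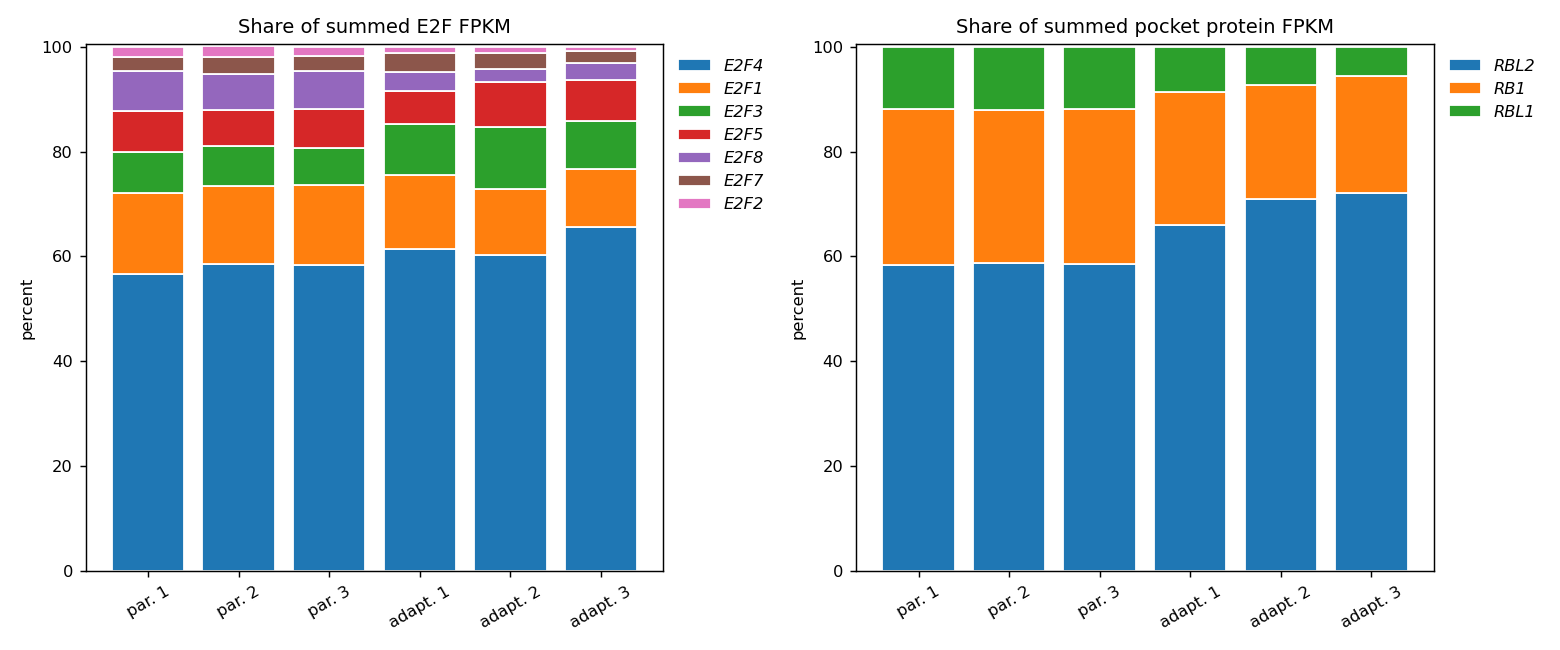
Share of each gene in the summed linear FPKM of the 7 E2F members (left) and of the 3 pocket proteins (right), in percent, for each of the 6 samples. RBL2 takes 65.9% or more of the pocket protein total in adapted samples against at most 58.7% in parental samples, and the E2F8 band narrows to between 2.60% and 3.71%.

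In parental cells the order of the mean levels was E2F4, RBL2, E2F1, RB1, E2F3, E2F5, E2F8, RBL1, E2F7 and E2F2, at 50.6, 21.2, 13.3, 10.7, 6.61, 6.47, 6.36, 4.28, 2.58 and 1.67 FPKM. Neighbours did not overlap except E2F3 with E2F5 and E2F5 with E2F8. In adapted cells 8 of the 10 members had the same rank, among them E2F4 (41.6 FPKM), RBL2 (23.5) and E2F2 (0.713). E2F1 (8.38) and RB1 (7.82) now overlapped, and so did RBL1 (2.42) with E2F8 (2.14) and E2F8 with E2F7 (2.00). E2F8 and RBL1 exchanged ranks, with values that overlapped in adapted cells.

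Adapted replicate 1 was the highest of the adapted samples in 6 of the 7 members that fell, the exception being E2F5, and in 56.0% of all rows that fell. The standard deviation on the log2 scale was larger in adapted than in parental cells for 9 of the 10 members, as it was for 79.9% of all rows tested.

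The other genes of the pathway were taken from hand-written lists and are described by counts and medians. Of the proteins that E2F factors and DREAM need at the DNA, TFDP1, the main DP partner, decreased from 38.1, 37.8 and 37.9 FPKM to 36.2, 30.4 and 28.4 (log2 fold change -0.26, limma, adjusted p = 0.0402). TFDP2, the other DP partner, rose from 7.46, 7.60 and 7.80 FPKM to 9.27, 9.87 and 10.9 (0.35, limma, adjusted p = 0.00547). E2F6, a repressor that does not bind pocket proteins, was at 3.12 ± 0.26 before and 3.03 ± 0.23 after Osi on the log2(FPKM + 1) scale (SD, n = 3 each, limma, adjusted p = 0.682). The adjusted p of TFDP1 lay near the threshold, and in 7 alternative fits only 1 of these 3 genes was called. Of the 7 genes of the MuvB core, B-MYB and FOXM1, 4 fell and 1 rose past the threshold. Of all rows tested, 56.9% were called, 26.2% lower and 30.7% higher. The median log2 fold change of this list was -0.49. FOXM1, a transcription factor of G2/M genes, fell by 1.77 and MYBL2, which encodes B-MYB, fell by 1.28 on the log2 scale. RBBP4, a histone-binding MuvB subunit, rose from 14.0, 13.2 and 13.8 FPKM to 17.2, 15.1 and 16.7.

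Upstream of the pocket proteins, 9 of 10 genes for cyclins, kinases and an activating phosphatase passed the filter, CCND2 being at or near 0. Of these 9, 4 fell and 1 rose, a share close to the 56.9% of all rows called in either direction. By direction, 26.2% of all rows fell and 30.7% rose. On the log2 scale CCND3, a D-type cyclin, fell by 1.02 and CCNA2, cyclin A2 of S phase, fell by 1.6, whereas cyclin E2 (CCNE2) rose by 0.45. CCND1, the D-type cyclin with the highest level, was at 5.82 ± 0.06 before and 5.51 ± 0.30 after Osi on the log2(FPKM + 1) scale (SD, n = 3 each, limma, adjusted p = 0.103). Among 7 inhibitors of these kinases, 2 rose and 1 fell, a smaller share than the 56.9% of all rows called. CDKN2B (p15), which blocks CDK4 and CDK6, went from 5.03, 3.80 and 3.76 FPKM to 22.7, 47.7 and 44.1, and CDKN1C (p57) from 0.448, 0.665 and 0.903 to 4.47, 7.79 and 6.63. CDKN1C passed the filter only through its adapted values (log2 mean 0.73 in parental and 2.84 in adapted samples). CDKN2D (p19) fell by 0.46 on the log2 scale, and the median of the list was -0.15.

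Of 6 genes for the degradation of E2F proteins, 3 fell and none rose, beside 26.2% of all rows that fell and 30.7% that rose. Those that fell included CCNF, cyclin F, which marks E2F factors for destruction (from 11.5, 11.7 and 11 FPKM to 6.14, 4.34 and 4.59), and SKP2, an F-box protein (-0.53 on the log2 scale). Of 12 co-repressors that pocket proteins recruit, 6 fell and 2 rose, again beside 26.2% and 30.7% of all rows. Their median of -0.21 was -0.12 without adapted replicate 1. HDAC1, a histone deacetylase, decreased by 0.60 and DNMT1, the maintenance DNA methyltransferase, decreased by 0.57 on the log2 scale, while HDAC2 rose from 9.61, 9.60 and 9.88 FPKM to 16.1, 28.1 and 13.1 and SIN3B rose by 0.20.

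Downstream, all 33 genes of a G1/S list of E2F targets were tested, and 26 fell and none rose, against 26.2% of all rows that fell. Their median log2 fold change was -0.76. CDT1, which loads the replicative helicase, went from 18.8, 19.0 and 18.8 FPKM to 5.80, 2.89 and 3.53, and ORC1, a subunit of the origin recognition complex, from 24.3, 23.4 and 24.8 to 8.54, 4.8 and 5.03. All 26 genes of a G2/M list of DREAM targets fell, with a median of -1.84, led by NEK2, a centrosomal kinase (-2.89), and TOP2A, a topoisomerase (-2.77). The median change of the 10 members, -0.37, was smaller in size than that of either target list. Of 9 apoptosis genes described as targets of E2F1, 8 passed the filter (TP73 did not). Of these 8, 2 rose and 4 fell, beside 30.7% of all rows that rose and 26.2% that fell. BCL2L11 (BIM) rose by 0.38 on the log2 scale, while PMAIP1 (NOXA) fell by 1.16 and BBC3 (PUMA) fell by 0.96.

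**Figure D4:**
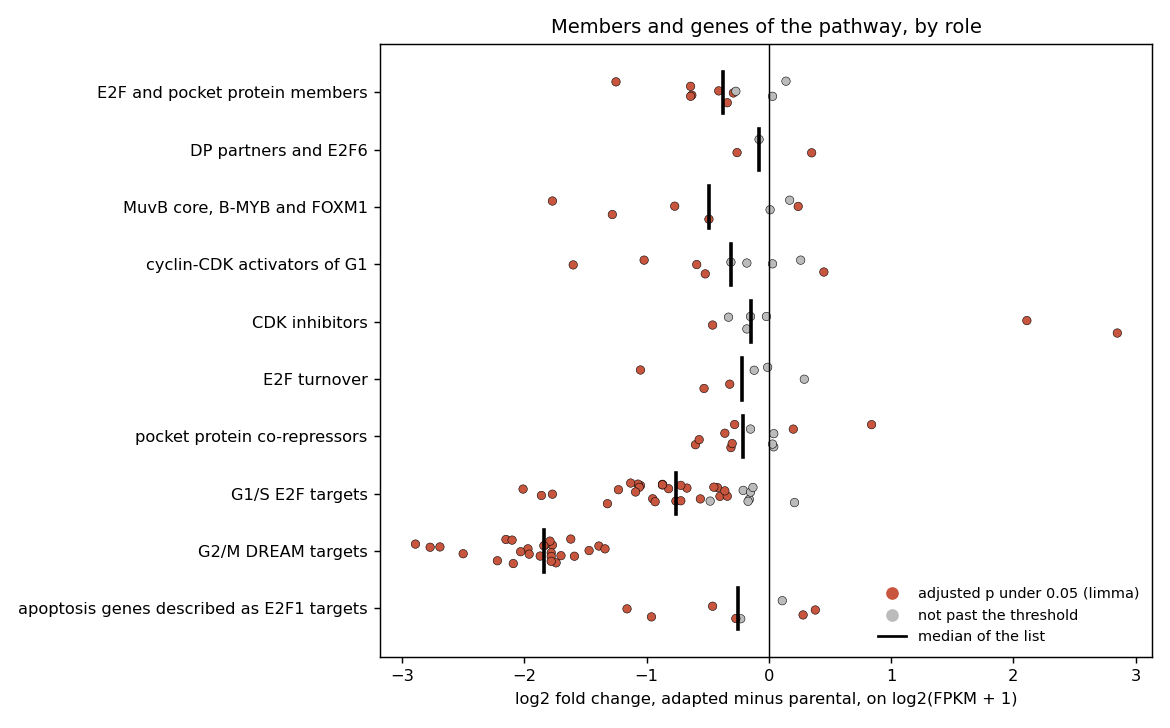
Log2 fold change, adapted minus parental, on the log2(FPKM + 1) scale (horizontal axis) for every tested gene of the members and of 9 pathway lists, with a point per gene, coloured by whether limma's adjusted p was under 0.05, and a bar for the median. The members centre on -0.37, the G1/S targets on -0.76 and the G2/M targets on -1.84, while CDKN2B and CDKN1C stand to the right.

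The motif printed above was set against the change of all tested genes that have a window in the RefSeq table. Of 8102 genes without a match 26.5% fell, of 1125 with 1 match 27.7% fell, and of 107 with 2 or more matches 27.1% fell. The median log2 fold change was 0.03 in genes without a match and 0.05 in those with 2 or more. E2F1, E2F2 and RBL1 are 3 of the 29 genes with 2 or more matches that fell, and the differences between these shares were not tested.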

How the data were processed

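RNA-sequencing values of 3 parental (0 h) and 3 adapted (72 h of Osi) samples were used. The deposited values are on a log2 scale, in 1 column for each sample. The unit is not named and was taken from the values as log2(FPKM + 1). The submitters' processing notes name hg38, Bowtie2 2.1.0, STAR and edgeR, without roles, and the study's methods name DESeq2. Such tests need counts, so limma 3.58.1 in R 4.3.3 was used in their place (lmFit, eBayes with an intensity trend, unpaired, two-sided), with Benjamini-Hochberg adjustment over the 12656 rows with a mean of at least 1. Columns named for DMSO and Osi were matched to samples by group and replicate number. In 147 rows, none of them a member or a tested gene of the pathway lists, at least 1 linear value lies off the 6-decimal grid of the rest.

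Shares and ratios were taken on linear FPKM and tested by exact permutation. The 5 ratios and the motif were chosen after the values were seen. The members, lists and alternatives were chosen with earlier results of these data known. Genes were named by rule: all members, up to 2 genes per list that rose and 2 that fell most past the threshold without overlap, and the 3 rows nearest to the member that fell most (no member rose past the threshold). The values of 1 gene that the rule names are not reported here. CCND1, CCND2, E2F6 and TP73 were named outside it, after their values were seen. Coordinates of genes are from GENCODE v29 (GRCh38), and promoter sequences are from RefSeq (GRCh38.p14), where 8 of the 10 members matched by symbol. Python 3.11.15 was used.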

Additional observations from a re-analysis of the deposited data

How the results depend on the processing

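E2F1, E2F2, E2F5, E2F8, RB1 and RBL1 stayed lower in adapted cells and past the threshold under every alternative that could test them. E2F4 lost its call with samples set to an equal sum that leaves out mitochondrial transcripts (-0.24), without the filter (-0.29) and in 5 of the 6 fits that left out 1 sample (-0.36 to -0.18 over the 6). E2F3 was -0.00092 after quantile normalization and ranged from -0.02 to 0.10 in the leave-one-out fits. In those fits E2F7 ranged from -0.45 to -0.14 and RBL2 from 0.10 to 0.21. The number of members called was 7, ranged from 6 to 9 in the leave-one-out fits, and was 3 of 4 with a mean of at least 3, where 4532 of 7693 rows were called, since fewer rows remained. The same filter gave medians of -1.28 (MuvB, 3 genes, all 3 called), -0.12 (E2F turnover) and -0.06 (apoptosis genes), with 3 G1 activators and 1 CDK inhibitor called. The MuvB median was -0.58 with 0.1 added in place of 1. Of the DP partners and E2F6, 1 gene was called without the filter and after rescaling without mitochondrially encoded genes. Leaving out 1 sample gave, for that list, medians of -0.2 to 0.06 and 1 or 2 genes called, MuvB medians of -0.55 to -0.39, G1 activator medians of -0.47 (without adapted replicate 1) to -0.18 (without adapted replicate 3), 2 to 6 CDK inhibitors and 5 to 8 co-repressors called. The activator share difference ranged from -1.63 to 0.55 percentage points in those fits. It was -2.02 with E2F7 and E2F8 left out of the sum and -1.17 with E2F6 added. The RBL2 share difference was 8.57 with RBL1 left out of the sum. The replicate number as a block (2 residual degrees of freedom) left the 7 calls in place and gave 6761 rows called against 7202 (5763 to 8370 with 1 sample left out). No shared deviation was seen between same-numbered samples: the correlations of their deviations were -0.0509, -0.0309 and -0.0203. Such correlations cannot decide whether the samples were handled as pairs. Depth is unknown, so limits set by counting could not be given.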
